A study of Mus musculus with 4 samples.

Results

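The genes described here are 7 Kruppel-like factor genes (Klf2, Klf3, Klf4, Klf6, Klf9, Klf10 and Klf13) and 3 genes of the Zfp36 family (Zfp36, Zfp36l1 and Zfp36l2). They were taken as every probe set whose only gene symbol in the platform annotation was one of these names, which gave 26 probe sets of the 22626 non-control probe sets on the array, 20 for the Kruppel-like factors and 6 for the Zfp36 family. Klf9 had 7 probe sets, Klf3, Klf6, Klf13 and Zfp36l2 had 3 each, Klf4 and Zfp36l1 had 2 each, and Klf2, Klf10 and Zfp36 had 1 each. Every probe set was kept separate.

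The arrays measured RNA of mouse bone marrow-derived mast cells, which are primary mast cells grown from marrow in interleukin-3. There were 2 groups of 2 arrays, Pac1-/- and wild-type (Pac1+/+), each array from a culture of its own. Pac1, the product of Dusp2, is a phosphatase that inactivates MAP kinases. Marrow came from mice aged 8 to 12 weeks and was cultured with the cytokine at 5 ng/ml over 4 to 6 weeks. Cultures of both genotypes had bound IgE against dinitrophenyl (100 ng/ml, 18 h) and were then exposed during 2 h to DNP-HSA antigen at 20 ng/ml, so no unstimulated cells were compared. The strain, the sex of the mice and the way the deletion was made are not given in the sources used here.

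Kruppel-like factors are zinc finger transcription factors that bind GC-rich and CACCC sequences, and several of them are switched on within minutes to hours of a stimulus. The Zfp36 proteins bind AU-rich elements in the tails of short-lived mRNAs, many of them encoding cytokines, and recruit the deadenylation machinery that starts their decay. The p38 MAP kinase pathway controls this step, because its downstream kinase MK2 phosphorylates tristetraprolin, the product of Zfp36, and so restrains decay.

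The arrays were not alike. By median deposited intensity they read 40.6 and 24.5 in Pac1-/- cells (replicates 1 and 2), against 49.3 and 48.0 in wild-type cells. The 3' to 5' signal ratio of the beta-actin controls was 293 and 54.8 in Pac1-/- cells, against 109 and 1.58 in wild-type cells, and that of the GAPDH controls was 1.36 and 191, against 0.80 and 0.84. The replicate number also separated the arrays. Over the tested probe sets defined below, replicate number accounted for 71.9% of the sum of squares and genotype for 17.9%. Xist read 41.7 and 984.3 in Pac1-/- cells, against 47.7 and 2952.4 in wild-type cells. The Y-linked gene Eif2s3y read 274.8 and 2.1 in Pac1-/- cells, against 219.1 and 1 in wild-type cells. In both genotypes Eif2s3y was high on replicate 1 and Xist on replicate 2, while no label gives the sex. Dusp2 itself read 109.3 and 75.5 in Pac1-/- cells, against 167.2 and 90.7 in wild-type cells, with overlapping groups, and where its probes lie relative to the deletion is not given here, so it does not check the labels. Mast cell markers were present on all arrays, with all but Mcpt4 and Ms4a2 of 11 at 100 or more on each. Those of neutrophils were below 100 on every array for 8 of 10 genes, of basophils and eosinophils for 5 of 6, of lymphocytes for 8 of 8, of erythroid cells and megakaryocytes for 5 of 7, of stromal and endothelial cells for 6 of 9 and of macrophages for 5 of 10. The macrophage markers summed to 6129 and 721 in Pac1-/- cells, against 8008 and 650 in wild-type cells. Most of the sum on the replicate 1 arrays came from Cd68, at 5638.2 and 120.6 against 7511.7 and 118.3. Adgre1 read 221.9 and 217.0 against 248.3 and 250.5, and Lyz2 read 121.9 and 136.0 against 73.3 and 56.8. Marco, C1qa and C1qb were at most 23.5 on every array. The part of these differences in the results below was not tested.

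Intensities are given after quantile normalisation of the 4 arrays, and differences on the log2 scale after values below 16 had been set to 16. A probe set was tested if its mean over the 4 arrays was at least 100. Of the 26 probe sets, 11 passed this minimum, and they stand for 7 genes. Klf2, Klf4 and Zfp36 had no tested probe set and are given as levels only. Levels of different probe sets are not compared with each other, because probe sets differ in how brightly they bind.

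Taken by the probe set with its highest mean, Klf6 read 2.08-fold, Klf13 2.15-fold, Klf10 2.37-fold and Zfp36l1 2.46-fold as high in Pac1-/- as in wild-type cells, and Zfp36l2 1.27-fold. No dimmer probe set of these genes had both Pac1-/- arrays above both wild-type arrays, and both of Klf6 and 1451034_at of Zfp36l2 had both Pac1-/- arrays below both wild-type arrays. On these probe sets both Pac1-/- arrays lay above both wild-type arrays for 5 of 7 tested genes, against 26.1% of all 4998 tested genes by the same choice. The groups of Klf9 and Klf3 overlapped. In RNA of a whole culture, fewer cells that express a gene and less RNA per cell cannot be told apart. With Benjamini-Hochberg adjustment limma called none of these differences: 0 of 11 member probe sets were called, as were 0% of all 7770 probe sets tested, and the adjusted p of the members lay between 0.866 and 0.995. At an unadjusted p under 0.05 there were 2 of 11, against 3.38% of all tested probe sets. Of these 1 was higher and 1 lower in Pac1-/- cells, against 2.25% and 1.13%. The lower one, Klf6 1418280_at, was tested only because of its wild-type arrays, so nothing is read from these counts. With 2 arrays per genotype an exact permutation test cannot go below p = 0.333, so none is given.

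**Figure D1:**
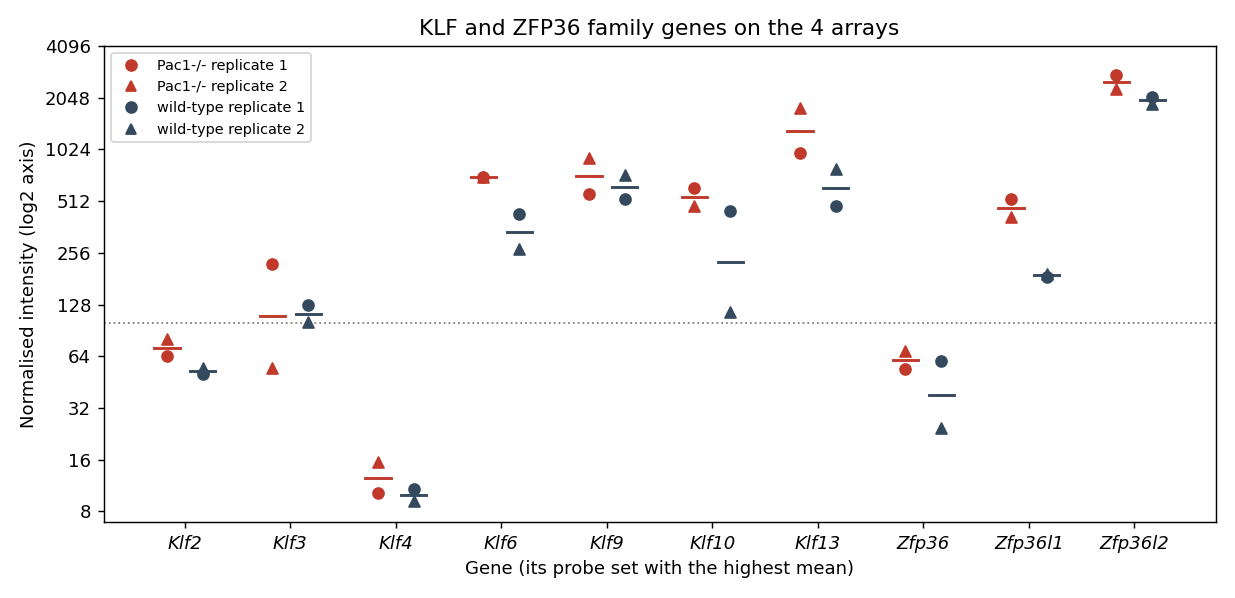
Normalised intensity (log2 axis) of each gene on the 4 arrays, by its probe set with the highest mean; circles are replicate 1, triangles replicate 2, bars the mean of the log2 values of 2 arrays, and the dotted line the minimum of 100 used for testing (applied to the mean of the 4 arrays). Both Pac1-/- arrays sit above both wild-type arrays for Klf6, Klf10, Klf13, Zfp36l1 and Zfp36l2, while Klf2, Klf4 and Zfp36 stay below 100 on all arrays.

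Zfp36l1, which encodes an mRNA decay factor also known as BRF1, had the member probe set with the lowest p. Its probe set 1450644_at read 526.9 and 415.6 in Pac1-/- cells, against 186.0 and 193.8 in wild-type cells. Both Pac1-/- arrays stood well above both wild-type arrays, which were close to each other. The log2 level averaged 8.87 ± 0.24 in Pac1-/- cells, against 7.57 ± 0.04 in wild-type cells (SD, n = 2 each), a difference of 1.30 ± 0.36 (SE; 95% confidence interval 0.26 to 2.34; limma unadjusted p = 0.0263, adjusted p = 0.866). It was 1.50 between the arrays numbered 1 and 1.10 between those numbered 2, and between 1.13 and 1.47 with any single array left out, where it no longer passed the unadjusted test. The other Zfp36l1 probe set, 1422528_a_at, was below 100 on every array, at 57.1 and 37.5 in Pac1-/- cells and 64.4 and 30.2 in wild-type cells. These groups overlapped.

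Zfp36l2, the third gene of the family and also a decay factor, read on 1437626_at 2762.8 and 2290.3 in Pac1-/- cells, against 2071.4 and 1890.0 in wild-type cells. The groups did not overlap, but the difference of 0.35 ± 0.36 was smaller than its standard error (limma adjusted p = 0.878). Its 2 remaining probe sets were dim. Of these, 1451034_at was lower in Pac1-/- cells, at 4.4 and 50.8 against 70.6 and 90.0, and 1439054_at overlapped, at 50.8 and 8.0 against 9.3 and 25.4. Zfp36 itself, the gene of tristetraprolin, which promotes decay of Tnf mRNA, read 54.2 and 68.9 in Pac1-/- cells and 59.7 and 24.3 in wild-type cells. All arrays were below 100 and the groups overlapped.

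Klf6, which encodes a widely expressed factor induced early after injury and growth stimuli, had 2 tested probe sets that pointed in opposite directions. The probe set 1433508_at read 706.4 and 711.4 in Pac1-/- cells, against 429.2 and 270.1 in wild-type cells. The Pac1-/- arrays were almost equal and lay above both wild-type arrays. This was a log2 difference of 1.06 ± 0.42 (SE; 95% confidence interval -0.14 to 2.26; limma adjusted p = 0.866), with 0.72 between the arrays numbered 1 and 1.40 between those numbered 2. With median centring, which put the median over all tested probe sets at 0.69, its limma unadjusted p was 0.0449. That p was above 0.05 under every other alternative with all arrays. On 1418280_at Klf6 read 38.8 and 57.5 in Pac1-/- cells, against 115.3 and 199.5 in wild-type cells. Here the Pac1-/- arrays lay below both wild-type arrays, by -1.68 ± 0.49 (limma unadjusted p = 0.0305, adjusted p = 0.866). With an intensity trend in the variance model the unadjusted p was 0.112, and with a floor of 64 it was 0.0500, just past the threshold of 0.05. The limma unadjusted p was 0.0112 on the values as deposited, 0.0439 with no minimum and 0.00818 with the replicate block. This probe set reached the minimum through the wild-type arrays, since its mean was 48.2 in Pac1-/- and 157.4 in wild-type cells. The remaining one, 1427742_a_at, was also lower in Pac1-/- cells, at 37.6 and 7.0 against 51.1 and 48.2, all below 100. No direction for Klf6 as a gene follows from probe sets that disagree.

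Klf13, a factor known for driving late Ccl5 transcription in T cells, read 971.3 and 1782.8 on 1436316_at in Pac1-/- cells, against 476.6 and 786.0 in wild-type cells. Both Pac1-/- arrays were above both wild-type arrays, and within either genotype replicate 2 was above replicate 1. The difference was 1.10 ± 0.54 (SE; 95% confidence interval -0.44 to 2.65; limma adjusted p = 0.866), with 1.03 between the arrays numbered 1 and 1.18 between those numbered 2. Without Pac1-/- replicate 2 it was 0.67, and with the replicate number as a block limma's unadjusted p was 0.0485. The dimmer 1432543_a_at read 145.8 and 8.2 in Pac1-/- cells and 77.7 and 75.4 in wild-type cells, so that its highest and its lowest value were both in Pac1-/- cells. The third, 1456030_at, was under 16 on every array.

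Klf10, also called TGF-beta-inducible early gene, had its only probe set, 1416029_at, at 611.0 and 477.0 in Pac1-/- cells, against 450.0 and 115.2 in wild-type cells. The groups did not overlap, but the gap between 477.0 in Pac1-/- replicate 2 and 450.0 in wild-type replicate 1 was small beside the spread within wild-type cells. The difference was 1.25 ± 0.81 (SE; limma adjusted p = 0.866), with 0.44 between the arrays numbered 1 and 2.05 between those numbered 2. It rested on wild-type replicate 2, and without that array it was 0.26, against 2.23 without wild-type replicate 1 (limma unadjusted p = 0.0345).

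Klf9, a factor induced by glucocorticoids and thyroid hormone, showed how far probe sets of one gene can differ. On 1428288_at it read 563.7 and 911.8 in Pac1-/- cells and 528.7 and 726.4 in wild-type cells. The groups overlapped, with a difference of 0.21 ± 0.46 (SE; limma adjusted p = 0.955). On 1456341_a_at the values were 753.4 and 118.0 in Pac1-/- cells, against 387.1 and 428.2 in wild-type cells. On 1428289_at they were 202.6 and 5.7, against 178.2 and 214.0. In both of these Pac1-/- replicate 2 was far below the other arrays and Pac1-/- replicate 1 was not. Their differences were -0.45 ± 1.04 and -1.78 ± 1.39, and without Pac1-/- replicate 2 they were 0.89 and 0.05. Without Pac1-/- replicate 1 they were -1.79 and -3.61, with limma unadjusted p = 0.0386 and 0.00797. The 4 untested Klf9 probe sets were below 100 on all arrays. Of these 1436952_at was lower in Pac1-/- cells, at 37.9 and 1.7 against 46.7 and 71.4, and 1436763_a_at, 1452723_at and 1422264_s_at overlapped.

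Klf3, a repressor that recruits the corepressor CtBP, read 221.3 and 54.5 on 1429360_at in Pac1-/- cells, against 127.6 and 100.8 in wild-type cells. The Pac1-/- arrays lay on either side of the wild-type arrays, and the difference was -0.05 ± 0.83 (SE; limma adjusted p = 0.995). On 1431630_a_at Klf3 followed the replicate number, at 15.6 and 126.8 in Pac1-/- cells and 17.2 and 246.6 in wild-type cells. The 2 arrays of a genotype differed there by 2.99 in Pac1-/- and by 3.84 in wild-type cells on the log2 scale, against a genotype difference of -0.53 ± 1.82. This probe set averaged 71.2 in Pac1-/- cells and reached the minimum through the wild-type arrays, at a mean of 131.9. The untested 1421604_a_at stayed near the minimum, at 79.8 and 113.4 against 86.6 and 75.5.

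Klf2, which keeps T cells and endothelium quiescent, read 64 and 80.4 in Pac1-/- cells and 50.6 and 54.4 in wild-type cells. Both Pac1-/- arrays were above both wild-type arrays, by 0.34 and 0.56 on the log2 scale between arrays of the same number, but all were below 100. Klf4, known from epithelial and monocyte differentiation, was at or next to the lower limit on both of its probe sets, between 9.2 and 15.5 on 1417394_at and between 2.4 and 17.5 on 1417395_at over the 4 arrays. No order can be read from such values.

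**Figure D2:**
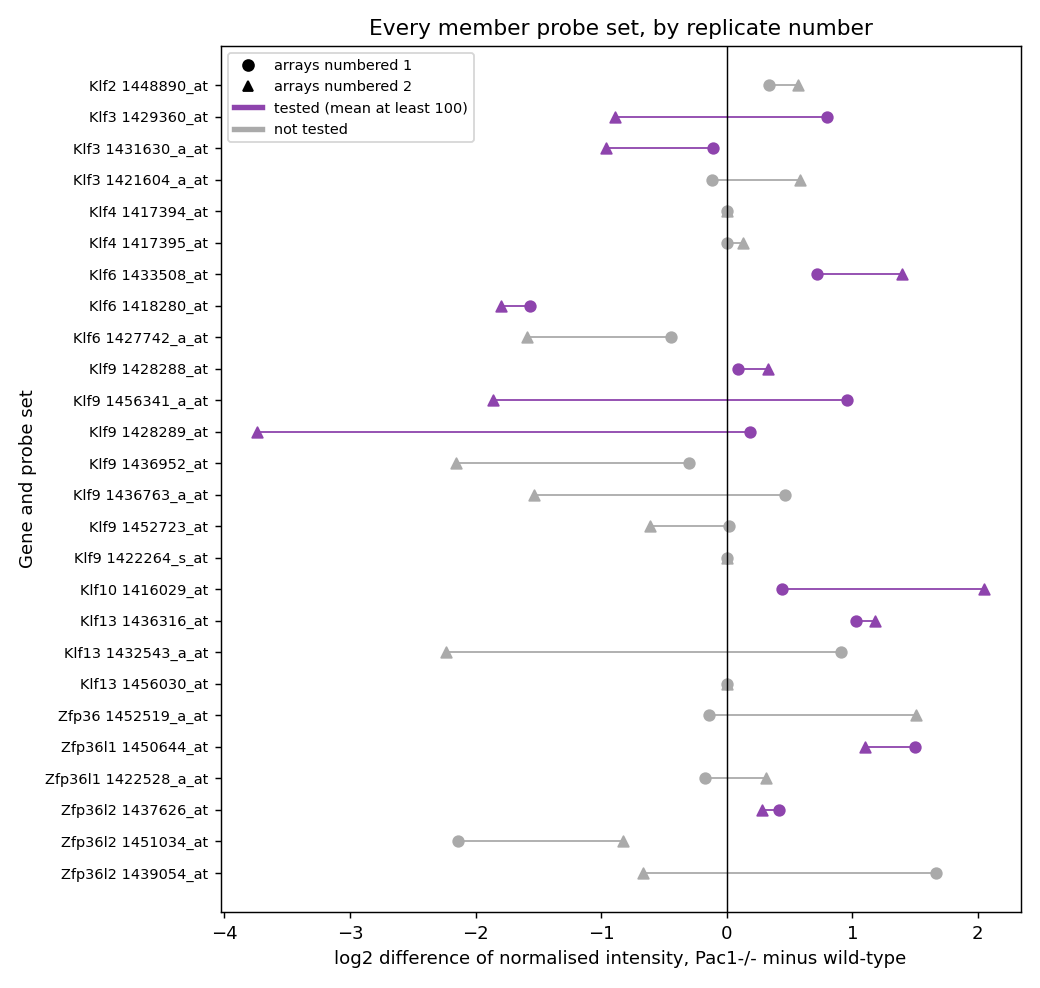
log2 difference of normalised intensity, Pac1-/- minus wild-type, for all 26 probe sets, given between the arrays numbered 1 (circles) and between the arrays numbered 2 (triangles), with purple for the 11 tested and grey for the 15 not tested; within a gene the probe sets run downwards from the highest to the lowest mean. Points at 0 with both symbols together are probe sets at the lower limit of 16, and the long lines are mostly those with a low triangle, such as Klf9 1428289_at.

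Over all 11 tested probe sets the median log2 difference was 0.21, against 0.06 for all tested probe sets, with 6 above 0 and 5 below. Of all tested probe sets 52.8% were above 0. The 7 probe sets with the highest mean of their gene had a median of 1.06 and 6 of them were above 0 (56.1% of all tested genes by the same choice), while the 4 other tested ones were all below 0. Of these 4, Klf6 1418280_at and Klf3 1431630_a_at were tested only because of their wild-type arrays, which favours a negative sign, so nothing is read from that count. In 5 of the 11, both Pac1-/- arrays lay above both wild-type arrays, and in 1 below, against 24.3% and 13.4% of all tested probe sets. The 1 below was again Klf6 1418280_at. Of the 16 probe sets that were not the highest of their gene, 10 were below 100 on every array and 8 had their lowest value on Pac1-/- replicate 2. That array gave the lowest value for 1 of the 10 highest-reading member probe sets, for 27.2% of all tested probe sets and for 25.7% of all non-control probe sets. The highest-reading probe sets were chosen by a mean that includes that array, which favours this contrast, so nothing is read from it. Within the 11 tested probe sets, replicate number accounted for 50.8% of the sum of squares, genotype for 30.4% and the remainder for 18.8%.

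**Figure D3:**
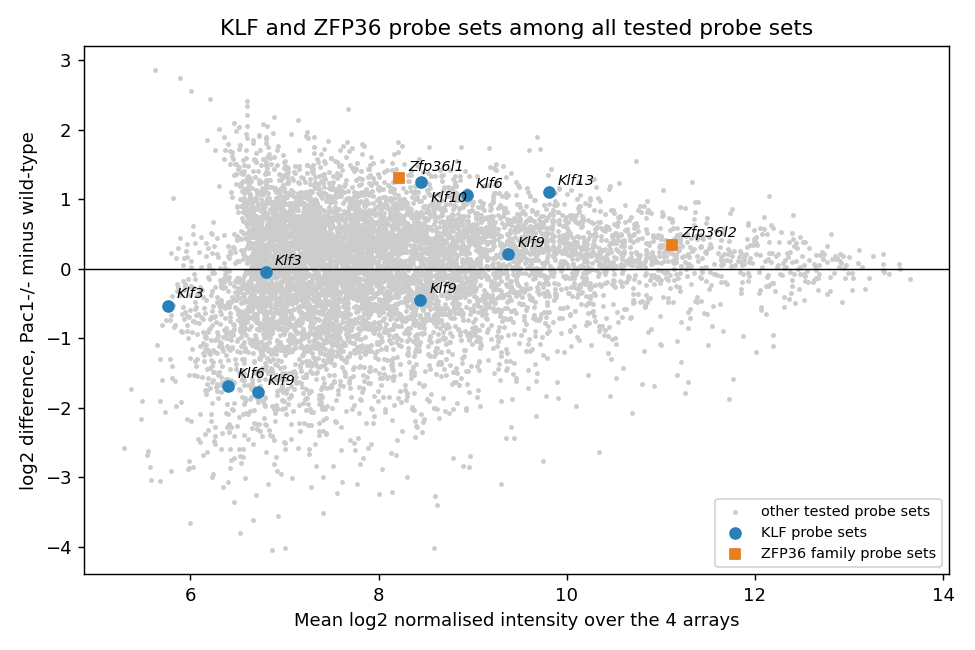
log2 difference (Pac1-/- minus wild-type) against the mean log2 normalised intensity of the 4 arrays for the 7770 tested probe sets (grey), with the Kruppel-like factor probe sets as blue circles and the Zfp36 family probe sets as orange squares. The members spread from -1.78 (Klf9) to 1.30 (Zfp36l1) and lie within the cloud of all tested probe sets.

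The promoters of Klf6, Klf13 and Zfp36l1 are shown because these genes had groups that did not overlap on a tested highest-reading probe set and have an entry in the sequence table. Each is the stretch of 250 bases before the transcription start, 5' to 3' on the gene's strand, from RefSeq on GRCm38.p6. Capitals mark CACCC and GGGCGG on either strand, the core sequences bound by Kruppel-like and related SP factors.
Klf6 (chr13:5861239-5861488, + strand): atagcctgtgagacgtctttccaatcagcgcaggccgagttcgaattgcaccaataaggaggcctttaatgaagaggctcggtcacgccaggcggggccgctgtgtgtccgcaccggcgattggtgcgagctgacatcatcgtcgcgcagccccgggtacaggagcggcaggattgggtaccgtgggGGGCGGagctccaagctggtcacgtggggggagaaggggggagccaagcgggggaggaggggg
Klf13 (chr7:63938916-63939165, - strand): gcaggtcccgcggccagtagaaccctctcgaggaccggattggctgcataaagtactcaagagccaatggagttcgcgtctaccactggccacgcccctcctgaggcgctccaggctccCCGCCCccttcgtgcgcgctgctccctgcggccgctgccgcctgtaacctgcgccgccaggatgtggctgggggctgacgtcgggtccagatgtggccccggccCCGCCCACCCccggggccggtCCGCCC
Zfp36l1 (chr12:80113014-80113263, - strand): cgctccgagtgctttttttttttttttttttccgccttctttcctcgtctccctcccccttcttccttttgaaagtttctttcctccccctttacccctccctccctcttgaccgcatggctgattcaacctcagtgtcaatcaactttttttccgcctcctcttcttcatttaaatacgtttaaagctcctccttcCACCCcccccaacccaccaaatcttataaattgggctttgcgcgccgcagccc

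In these windows Klf13 holds GGGCGG at 3 places and CACCC at 1, where the CACCC overlaps a GGGCGG on the opposite strand. Klf6 holds GGGCGG at 1 place and Zfp36l1 holds CACCC at 1. Promoter entries were found for 8 of the 10 genes, all but Klf10 and Zfp36l2. Of these 8, GGGCGG stood in 6, against 32.7% of all 32851 promoters of the table, and CACCC in 5, against 52.0%. TGACG, the core of the cyclic AMP response element, stood in 4, against 17.8%, and CCAAT in 4, against 33.8%. The CArG box, the binding sequence of serum response factor through which MAP kinase signals switch on early genes, stood in the window of Zfp36 alone, against 1.47% of all promoters. Both strands were searched, and a match describes the sequence only.

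The partners of these proteins were then read from 9 lists with 156 entries, which gave 90 different tested genes, each by its tested probe set with the highest mean. None passed limma's adjusted test, and 0% of the 4998 tested genes did. At an unadjusted p under 0.05 there were 6 genes, all with more signal in Pac1-/- cells, which is 6.67% of the 90, against 2.3% of all tested genes in that direction, and 0 with less signal, against 0.62%. Of the 6, Cnot4 and Dcp1a averaged below 100 in wild-type cells and were tested only because of their Pac1-/- arrays. The lists were also chosen with earlier results of these data known, so nothing is read from these counts. With no minimum 12 list genes passed, 8 of them higher in Pac1-/- cells, and with the replicate block 9 passed, 6 of them higher. The 6 genes of the fit with the minimum of 100 were Tob2, Cnot4, Pnrc1, Dcp1a, Tial1 and Rc3h2, and each had an adjusted limma p of 0.866. The beta-actin 3' to 5' ratio was also higher in Pac1-/- cells within each replicate number, and its part in these counts was not tested.

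The deadenylation list holds genes of the CCR4-NOT and PAN complexes, Parn and related proteins. Pan2 and Pan3 of the PAN complex and Cnot1 and Cnot3 of CCR4-NOT were among its genes not tested. The list had a median log2 difference of 0.79, against 0.10 for all tested genes. Of 13 tested genes 8 were above 0 and 5 below, with a median of 0.66 between the arrays numbered 1 and 0.92 between those numbered 2. Of the 8, Cnot4, Tob1 and Parn averaged below 100 in wild-type cells. They were tested only because of their Pac1-/- arrays, which favours a positive sign and a higher median. The median was 0.39 with a minimum of 200 and 0.47 without wild-type replicate 2. With median centring it was 1.43, where the median over all tested probe sets was 0.69. Tob2, an antiproliferative protein that binds the CCR4-NOT complex, read 316.9 and 470.3 in Pac1-/- cells, against 116.2 and 114.4 in wild-type cells. Its difference was 1.74 ± 0.40 (SE, n = 2 per genotype; limma unadjusted p = 0.0142), and its other tested probe set gave 1.19 ± 0.42. Cnot4, a ubiquitin ligase associated with the complex, read 245.8 and 320.3, against 103.3 and 85.8 in wild-type cells (1.58 ± 0.38; unadjusted p = 0.0169 with limma), and was not tested with a minimum of 200. Its other probe set gave 0.55 ± 0.48. Cnot2, a scaffold subunit of CCR4-NOT, read 416.6 and 428.2 in Pac1-/- cells, against 205.4 and 224.8 in wild-type cells. That is 0.98 ± 0.34 with an unadjusted limma p of 0.0515, which was below 0.05 with median centring (0.0486), with an intensity trend (0.0477), with a minimum of 200 (0.0454) and with no minimum (0.00174). Another probe set of Cnot2 read 222.3 and 213.9, against 46.2 and 40.4 (2.34 ± 0.35; limma unadjusted p = 0.00338), and was tested only because of its Pac1-/- arrays. Its remaining probe sets gave 0.74 ± 0.50 and -0.48 ± 0.38.

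In the list of decapping and 5'-to-3' decay, 6 of 9 tested genes were above 0 and 3 below, with a median of 0.42, which was 0.76 between the arrays numbered 1 and 0.67 between those numbered 2. The median was 0.17 with a minimum of 200 and 1.16 without Pac1-/- replicate 2. Pnrc1, a nuclear receptor coactivator that also activates decapping, read 481.6 and 436.0 in Pac1-/- cells, against 181.9 and 185.0 in wild-type cells (1.32 ± 0.34, SE; limma unadjusted p = 0.0214). Dcp1a, a decapping activator, read 204.6 and 256.2, against 85.7 and 97.5 (1.32 ± 0.37; limma unadjusted p = 0.0257). Both wild-type arrays of Dcp1a were below the minimum of 100, and with a minimum of 200 it was not tested. In both genes the wild-type arrays lay together and well below the Pac1-/- arrays. Lsm1, of the ring that binds shortened tails, gave 0.72 ± 0.39 and did not pass. The RNA exosome degrades from the 3' end, and its list also holds proteins that work with it, such as Wdr61 and Mtrex. The list had 6 of 9 tested genes above 0 and a median of 0.23. That median was 0.04 between the arrays numbered 1 and 0.58 between those numbered 2. The named genes of this list, Exosc9 (0.94 ± 0.66), Wdr61 (0.59 ± 0.51) and Mtrex (0.55 ± 0.51), did not pass either. The other tested probe set of Wdr61 gave -0.29 ± 2.46.

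The list of other AU-rich element binding proteins also holds binders of other elements, such as Celf1. Of its 11 tested genes 9 were above 0, with a median of 0.54. That median was 0.06 between the arrays numbered 1 and 0.57 between those numbered 2. Tial1, a translational silencer, read 524.2 and 765.0 in Pac1-/- cells, against 297.1 and 234.6 in wild-type cells (1.26 ± 0.41, SE; limma unadjusted p = 0.0422). Its 2 other tested probe sets gave 0.95 ± 0.51 and 0.62 ± 0.53. Rc3h2, a relative of roquin that recruits deadenylases, read 296.1 and 392.4, against 165.6 and 152.6 (1.10 ± 0.37; limma unadjusted p = 0.0465). The p of Rc3h2 was 0.0554 on the values as deposited, 0.0521 with median centring and 0.0525 with the replicate block, all by limma and unadjusted. Celf1, a binder of GU-rich elements, gave 0.80 ± 0.39 and did not pass, and its 3 other tested probe sets were below 0.

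**Figure D4:**
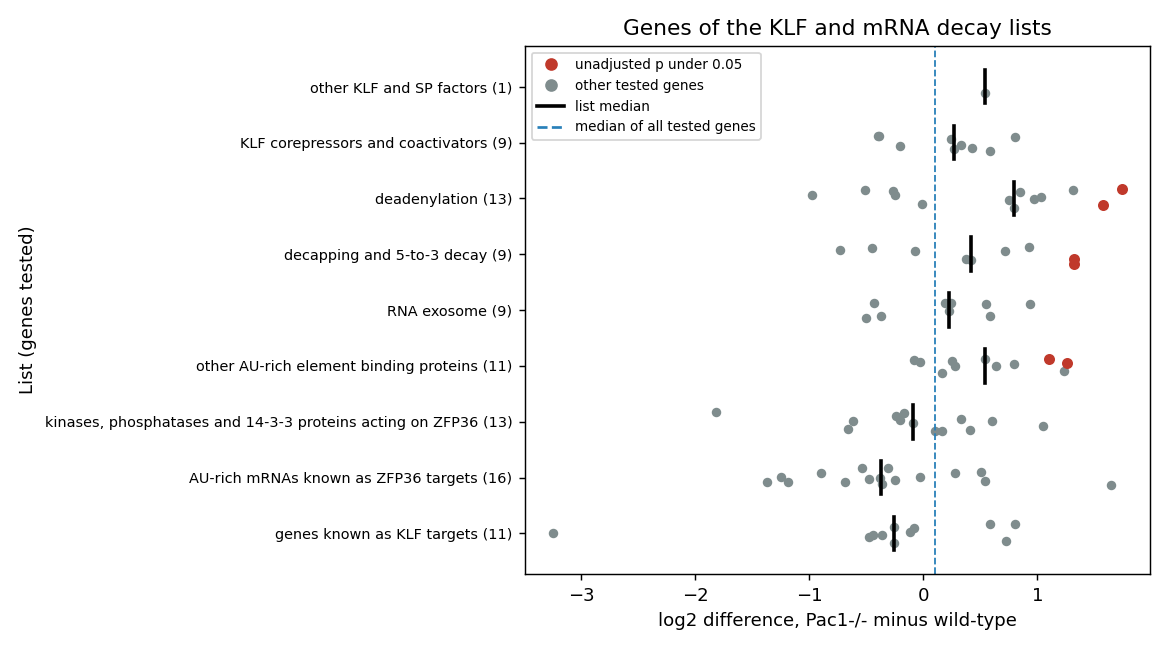
log2 difference (Pac1-/- minus wild-type) of each tested gene in the 9 lists, with red points for an unadjusted limma p under 0.05, grey points for the others, black bars for list medians and a dashed line for the median of all tested genes, 0.10; the number tested stands beside each list and vertical scatter has no meaning. All 6 red points lie in the deadenylation, decapping and AU-rich element binding lists, to the right of the line. The lists were chosen with earlier results known, so nothing is read from where these points lie.

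Among the kinases, phosphatases and 14-3-3 proteins that act on the Zfp36 proteins, 6 of 13 tested genes were above 0 and 7 below, with a median of -0.09. It was 0.12 on the values as deposited, 0.74 with median centring and 0.05 without Pac1-/- replicate 2. In the same order these settings gave medians of 0.04, 0.69 and 0.10 over all tested probe sets. Mapkapk2, which encodes MK2, read 241.4 and 32.9 in Pac1-/- cells, against 256.8 and 383.7 in wild-type cells. Pac1-/- replicate 2 alone was far from the others, and the difference of -1.82 ± 1.13 (SE) was -0.38 without it. It was -3.25 without Pac1-/- replicate 1 (limma unadjusted p = 0.0150). The ribosomal S6 kinase gene Rps6ka3 gave 1.05 ± 0.42, and 0.40 ± 0.38 on its other tested probe set. The phosphatase 2A catalytic subunit gene Ppp2cb gave -0.66 ± 0.37. Neither gene passed. Rps6ka3 did with median centring (limma unadjusted p = 0.0495), where the median over all tested probe sets was 0.69. Ppp2cb did with no minimum (limma unadjusted p = 0.0396).

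The AU-rich mRNAs known as targets of tristetraprolin and its relatives had 4 of 16 tested genes above 0 and 12 below, with a median of -0.37. That median was -0.72 between the arrays numbered 1 and 0.03 between those numbered 2, against 0.06 and 0.18 for all tested genes. It was 0.27 with median centring and 0.14 without Pac1-/- replicate 1, against 0.69 and 0.22 over all tested probe sets. Plaur, the urokinase receptor gene, read 138.9 and 110.8 in Pac1-/- cells, against 192.0 and 450.6 in wild-type cells (-1.25 ± 0.58, SE). Nfkbiz, a nuclear regulator of NF-kappaB, gave 0.54 ± 0.40, but its other tested probe set gave -0.61 ± 1.44. The cytokine gene Il1b gave 0.51 ± 0.38. None of the 16 passed at the unadjusted level. Several of the cytokine mRNAs, singled out after their values were seen, followed the replicate number. Il6 read 50.9 and 1431.5 in Pac1-/- cells and 138.5 and 1109.0 in wild-type cells, Ccl3 read 167.6 and 1499.8 against 295.6 and 1440.7, and Il3, low on both replicate 2 arrays, read 213.9 and 6.2 against 556.0 and 8.1.

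On the side of the Kruppel-like factors, corepressors and coactivators had 6 of 9 tested genes above 0 and a median of 0.27. The acetyltransferase gene Kat2b read 700.3 and 672.0 in Pac1-/- cells, against 391.8 and 393.6 in wild-type cells (0.80 ± 0.34, SE). The ubiquitin ligase gene Itch gave 0.43 ± 0.38 and the deacetylase gene Hdac1 -0.39 ± 0.35. With no minimum Kat2b and Hdac1 passed (limma unadjusted p = 0.000573 and 0.0251). With median centring Hdac1 was at 0.30, below the median of 0.69 over all tested probe sets in that setting. Of 14 other Kruppel-like and SP factor genes 10 were on the array, and Sp3 alone was bright enough to test (0.54 ± 0.69). Genes known as targets of Kruppel-like factors had 3 of 11 above 0 and 8 below, with a median of -0.25. The sign of that median turned between settings. It was -0.04 between the arrays numbered 1 and 0.24 between those numbered 2, against 0.06 and 0.18 for all tested genes. With median centring it was 0.39, against 0.69 over all tested probe sets. Without Pac1-/- replicate 2 it was 0.08, against 0.10 over all tested probe sets. When wild-type replicate 1 was left out it was 0.42, against 0.09. Among these target genes Tgfb1 read 134.7 and 51.9 in Pac1-/- cells, against 317.4 and 1970.6 in wild-type cells. Both Pac1-/- arrays were below both wild-type arrays, but wild-type replicate 2 was far above wild-type replicate 1, and the difference of -3.24 ± 1.14 was -1.92 without that array. Its limma unadjusted p of 0.0515 became 0.0426 with a floor of 64, 0.0421 with an intensity trend, 0.00703 with the replicate block and 0.0183 without wild-type replicate 1. The receptor gene Tgfbr2 gave 0.81 ± 0.45. The 2 tested probe sets of Tgfbr1 pointed in opposite directions, with 0.73 ± 0.44 on the brighter and -2.05 ± 0.84 on the dimmer, where it read 54.6 and 43.8 in Pac1-/- cells, against 99.4 and 412.8 in wild-type cells (limma unadjusted p = 0.0753). Tgfb1 and this dimmer probe set averaged below 100 in Pac1-/- cells and were tested only because of their wild-type arrays. None of the genes of these 3 lists passed the unadjusted test as fitted here.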

How the data were processed

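Each of 4 cultures, 2 Pac1-/- and 2 wild-type, had its total RNA measured on its own Affymetrix mouse 430A array. Per the labels' protocols, over 98% of the cells carried Kit and FceRI, and cRNA was prepared from 500 to 1000 ng of RNA. The authors deposited linear intensity values, for which the submitters' processing notes name MAS5. The mean of each array, trimmed by 2% at either end, lay between 150.06 and 150.08, which shows a common scaling. The table has no detection calls, so the dimness of a probe set was judged by its intensity only. The series' design text describes another route, RMA and limma with a minimum intensity of 100, and RMA values were not used here.

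The 64 control probe sets were left out of 22690. The rest were quantile normalised, raised to 16 where lower, and converted to log2. The 7770 probe sets with a mean of at least 100 were fitted with limma 3.58.1 in R 4.3.3 (eBayes, a single genotype term, two-sided tests, Benjamini-Hochberg over all 7770, threshold 0.05), and 14856 were not tested. The degrees of freedom were 2 residual and 1.71 prior. The number of arrays limits the precision. The labels call the cultures independent, but arrays of one replicate number resembled each other, so the spread behind the p-values also holds what a number shares. Of the non-control probe sets, 20380 had 1 gene symbol, 691 several and 1555 none.

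The genes, the lists of related genes and the rules were chosen with earlier results of these data known. By the rule for named genes, every member is given, and of each list the 3 tested genes with the lowest p. Il6, Ccl3 and Il3 are outside it. The fit was tested on simulated data. Alternatives were the values as deposited, median centring, no minimum, a minimum of 200, a floor of 64, an intensity trend, the replicate block and leaving out each array. Plots used matplotlib 3.10.9 (Python 3.11.15).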

Additional observations from a re-analysis of the deposited data

How the results depend on the processing

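Under all 11 alternatives 0 probe sets passed the adjusted limma test, among the members, the list genes and all probe sets. At an unadjusted p under 0.05, 263 probe sets passed in all, against 1762 with no minimum and 110 with a minimum of 200. For the members the count of 2 became 1 with a minimum of 200, with a floor of 64 and with an intensity trend, and 3 with the replicate block. For the list genes the count of 6, all higher, became 12 with no minimum, 8 of them higher, and 9 with the replicate block, 6 of them higher. It was 9 with median centring, all higher, and 8 with an intensity trend, 7 of them higher. With a floor of 64 it was 7, 6 of them higher. On the values as deposited and with a minimum of 200 it was 5, all higher. The members' median of 0.21 was 0 with no minimum, 0.44 on the values as deposited, 1.07 with median centring, which also put the median over all tested probe sets at 0.69, and 1.06 with a minimum of 200, which left 7 member probe sets. The share with more signal in Pac1-/- cells among those 263 was 66.5%. The majority direction depended on the setting: the share was 93.0% with median centring and 54.2% on the values as deposited, but 36.5% with the replicate block, 11.8% without Pac1-/- replicate 1, 40.7% without Pac1-/- replicate 2 and 38.0% without wild-type replicate 2. Of 36 single probe sets, 34 kept their direction under the 7 alternatives with all arrays wherever they were tested. The exceptions were Klf3 1429360_at, at 0.16 with median centring and 0.070 with a floor of 64, and Hdac1, at 0.30 with median centring. With a minimum of 200 only 27 of the 36 were tested. Klf6 1418280_at was below the minimum with median centring, and Klf3 1431630_a_at on the values as deposited.

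With each array left out in turn, the unadjusted counts lay between 79 and 408 for all probe sets, between 0 and 2 for the members, between 0 and 4 for the list genes and between 0 and 3 for the list genes with more signal in Pac1-/- cells. The members' median lay between 0.12 and 0.67. That of the RNA exosome list lay between 0.05 and 0.43, and that of the other AU-rich element binding list between 0.28 and 0.81. Directions changed for Klf3 1429360_at (-1.06 to 0.96), Klf3 1431630_a_at (-2.45 to 1.39), Klf9 1428288_at (-0.14 to 0.56), Klf9 1428289_at (-3.61 to 0.053), Klf9 1456341_a_at (-1.79 to 0.89) and Sp3 (-0.24 to 1.32). These fits have 1 array in a genotype, assumed to vary like the other, and part of the replicate difference enters them. Without Pac1-/- replicate 2, and without wild-type replicate 2, 0 members passed at the unadjusted level.

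The arrays of one number deviated together from their genotype means (r = 0.751 across 7770 probe sets, which are not independent). With 2 pairs and no label that ties the numbers, the pairing is a hint from the data only. With the replicate block 899 probe sets passed at the unadjusted level and 0 after adjustment. The causes of these changes were not tested.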
